A study of Mus musculus with 6 samples.

Results

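The carbonic anhydrases are a family of mostly zinc-bearing enzymes that turn carbon dioxide and water into bicarbonate and a proton, and run the same reaction backwards. The 9 genes described here, Car2, Car3, Car4, Car5b, Car8, Car12, Car13, Car14 and Car15, were taken by symbol from the 55367 gene symbols listed for every library. The family has 7 more symbols in the same lists, Car1, Car5a, Car6, Car7, Car9, Car10 and Car11, which are given only beside the members.

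In the kidney tubule, carbonic anhydrase feeds the exchange of acid for base across the cell. Enzyme in the cytosol supplies protons to pumps and exchangers in the apical membrane and bicarbonate to transporters in the basolateral membrane, and enzyme held on the cell surface works on the fluid outside. Intercalated cells of the collecting duct, which secrete acid or base into the urine, are known for their cytosolic Car2, and the proximal tubule, which reclaims most filtered bicarbonate, for Car2 and Car4.

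RNA-seq covered kidney cells of 3 groups of mice at Day115, with 2 libraries in each group. The cells were labelled as tubular epithelium and as positive for DBA, a plant lectin that binds collecting duct cells, although the same protocol text also speaks of RNA from the whole kidney. WT mice received saline. ADPKD mice, labelled Pkd1-/-, carried floxed Pkd1 alleles and the recombinase Cre/Esr1, were male, had tamoxifen injected on days 25 and 28 after birth to delete Pkd1, and received saline. ADPKD+MMPP mice had the same genotype and received MMPP, a melanin-like nanoparticle, into a vein every 4 days from day 55 for 2 months, with 10 mg/kg per injection by the methods. The promoter that drives the Cre, and whether WT mice also received tamoxifen, are not given in the sources used here. Nothing says that the libraries of a group came from separate animals, so p-values measure only the spread between these libraries, which may be technical.

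The values are FPKM, fragments of a gene divided by gene length and library size, so levels of different genes can be set side by side within the limit given with the structure of the genes. Pkd1, the deleted gene, had 17.7 and 17.2 FPKM in the WT libraries, 7.64 and 8.91 in ADPKD, and 4.34 and 3.99 in ADPKD+MMPP. It was lower in each library labelled as a knockout than in each WT library. Aqp2, the water channel of principal cells in the collecting duct, lay between 677 and 3555 FPKM over the 6 libraries, so this defining marker of the labelled cells was abundant in each of them. Avpr2, another principal cell marker, was not, and reached at most 0.059 FPKM in a library. Other cell types were present as well. The 5 podocyte markers summed to 900 and 1231 FPKM in WT, 205 and 90.8 in ADPKD, and 89.7 and 87.2 in ADPKD+MMPP. Podxl made up 84.1 and 80.8 FPKM of the treated sums, while Nphs1 went from 13.3 and 3.42 in ADPKD to 0.205 and 0.332. The 14 proximal tubule markers summed to 724 and 396 FPKM in WT, 922 and 290.1 in ADPKD, and 14450 and 13760 in ADPKD+MMPP. Kap alone made up 12822 and 12116 FPKM of the treated sums, so most of the rise of the sum was that of Kap. In such bulk RNA, fewer cells of a type and less RNA per cell cannot be told apart.

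The libraries also differed in depth and in how their values were made. Depth, read from the steps that single reads leave in the low FPKM values, was 30.6 and 31.0 M reads in WT, 33.1 and 32.1 M in ADPKD, and 11.8 and 10.9 M in ADPKD+MMPP. Odd read numbers made up between 35.3% and 37.2% of the low values in the WT and ADPKD libraries, but 7.67% and 7.17% in the ADPKD+MMPP libraries. This difference and the treatment cannot be told apart. Where few read numbers are odd, single reads may not be independent. Read numbers given below are therefore an upper limit on independent counts.

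The members spanned a wide range of levels. Their summed FPKM was 140.1 and 146 in the WT libraries, 229.6 and 94.6 in ADPKD, and 494 and 502 in ADPKD+MMPP. Car2 alone made up 59.9% and 61.9% of this sum in WT, 82.0% and 77.5% in ADPKD, and 84.9% and 85.6% in ADPKD+MMPP. By its FPKM, Car2 ranked between 112 and 631 among the 55367 symbols of a library. Without Car2 and the inactive member Car8, the other 7 genes summed to 52.7 and 50.9 FPKM in WT, 40.6 and 20.6 in ADPKD, and 73.6 and 70.2 in ADPKD+MMPP. These sums were lower in each ADPKD library than in each WT library, and higher in both ADPKD+MMPP libraries than in any other.

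The order of the members below Car2 changed between the groups. In WT the second place belonged to Car12, at a mean of 32.8 FPKM, followed by Car13 at 6.14, Car4 at 5.30, Car8 at 4.14, Car5b at 3.17, Car15 at 2.56, Car14 at 1.79 and Car3 at 0.057. In that order the libraries of Car13 and Car4, and those of Car4 and Car8, overlapped, and the other neighbours did not. In ADPKD the means were 12.4 FPKM for Car12, 7.74 for Car5b, 7.16 for Car13, 1.54 for Car14, 1.45 for Car4, 0.768 for Car8, 0.258 for Car15 and 0.033 for Car3. There the libraries of Car12 overlapped those of Car5b, Car5b those of Car13, Car14 those of Car4, and Car4 those of Car8. In ADPKD+MMPP the place after Car2 went to Car4, at a mean of 24.4 FPKM, followed by Car5b at 23.4, Car14 at 10.2, Car13 at 7.84, Car12 at 3.06, Car15 at 1.97, Car8 at 1.76 and Car3 at 1.11. Only Car4 with Car5b, and Car15 with Car8, overlapped in that group. Values of the treated libraries shifted with gene structure, as given below, so this order is of the values as deposited.

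**Figure D1:**
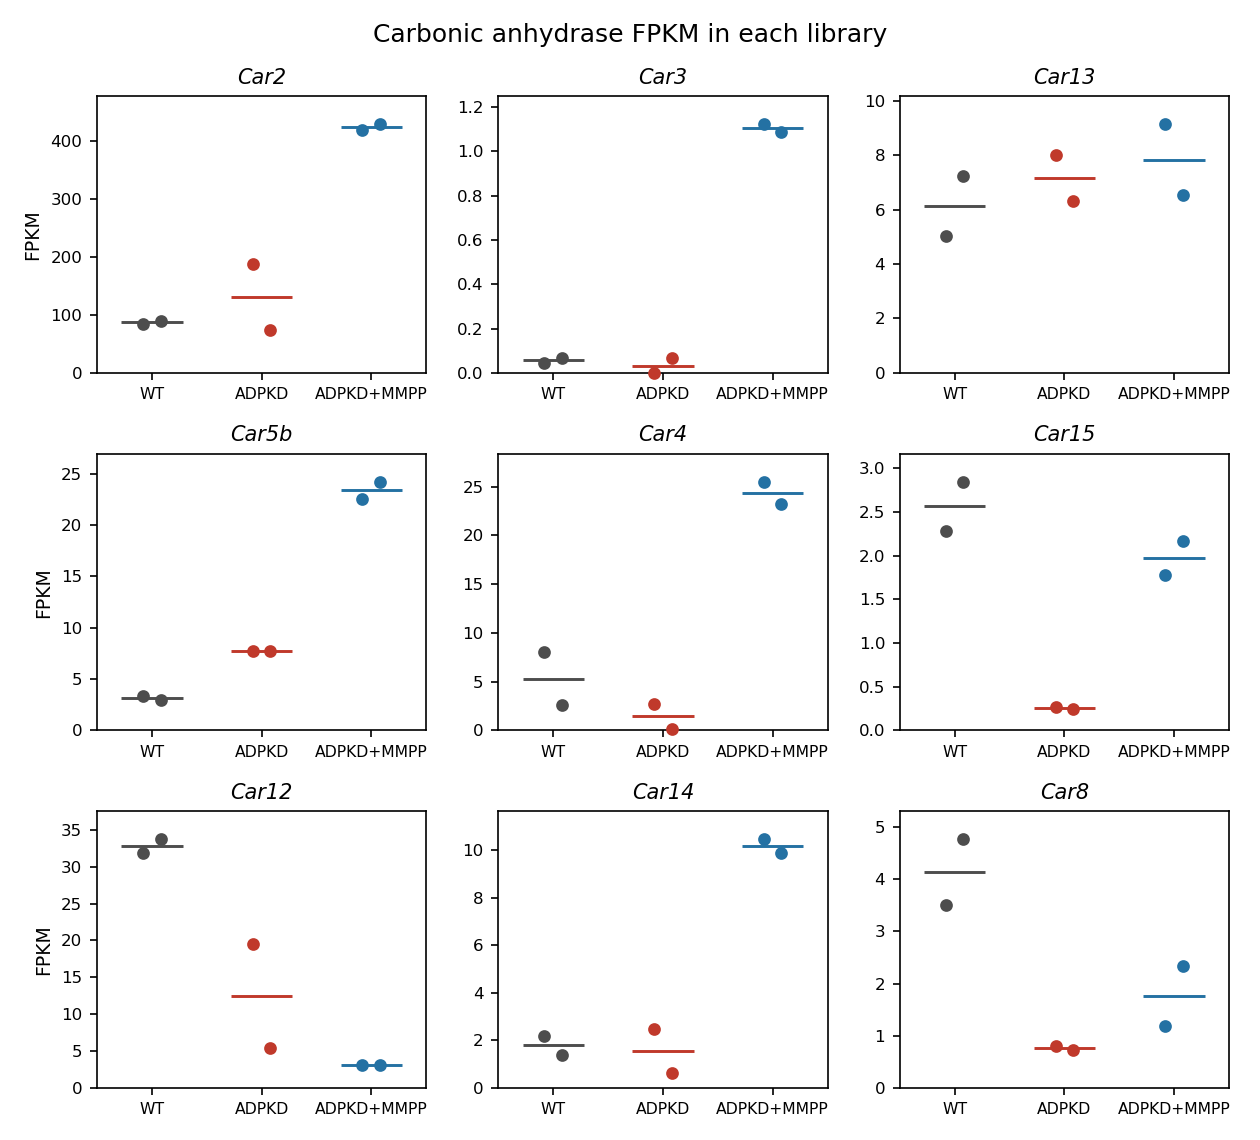
FPKM of the 9 carbonic anhydrases, each panel with its own linear axis from 0. Points are libraries and lines are means of the 2 libraries of WT (grey), ADPKD (red) and ADPKD+MMPP (blue); Car2 reached 429 FPKM after MMPP treatment while Car12 stood at 3.06.

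The comparison of ADPKD with WT asks what the deletion of Pkd1 goes with in these cells. Of the 9 members, the mitochondrial Car5b was higher and the membrane enzymes Car12 and Car15 and the inactive Car8 were lower at a fold change of at least 1.5 and an unadjusted P under 0.05, the study's thresholds, here applied with limma to log2(FPKM + 1). Over all 14862 genes tested, 14.2% were called higher and 12.5% lower, against 1 and 3 members. Those 4 members had no overlap between the groups, and the other 5 had. Across the tested genes, 67% had groups that did not overlap. All 9 members passed the filter of at least 1 FPKM in at least 2 libraries, but Car3 passed only through the ADPKD+MMPP libraries and Car8 and Car15 only through WT and ADPKD+MMPP, so the counts lend no support to a difference.

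The comparison of ADPKD+MMPP with ADPKD asks what the treatment goes with in mice given the Pkd1 deletion. Their libraries still held FPKM of Pkd1 over the whole gene, which does not tell whether intact Pkd1 RNA remained. In this comparison 7 members were called higher, Car2, Car3, Car4, Car5b, Car8, Car14 and Car15, and 1 lower, Car12, where 27.9% of tested genes were called higher and 43% lower. The call of Car8 rests on a fold change of 1.53 and does not survive several alternatives, and Car3 had to be higher to be tested at all. Leaving out both, 5 members were higher. The libraries did not overlap for 8 members, all but Car13, and for 87.8% of all tested genes. Over all tested genes the median change was -0.36 in log2 units here, against 0.03 in ADPKD against WT. It moved to -0.14 with TMM factors, to 0.10 with quantile normalization and to -0.56 with libraries rescaled to a common sum. Of the called genes, 39.3% were higher with FPKM as deposited, and 54% with quantile normalization. In the 12374 protein-coding genes alone the share was 41.5%, and 58.5% after centring by gene structure.

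The comparison of ADPKD+MMPP with WT sets treated cells of the deletion genotype beside WT cells. It shares its libraries with the other comparisons, so its values are not independent of theirs. Car2, Car3, Car4, Car5b and Car14 were called higher and Car8 and Car12 lower, 5 and 2 members, where 30.1% of tested genes were called higher and 43.8% lower. Without Car3, 4 members were higher. Car13 and Car15 were not called. The libraries overlapped for Car13 alone, and 91.9% of all tested genes had groups that did not overlap. Over all tested genes the median change was again -0.36. Of the called genes, 40.8% were higher with FPKM as deposited, and 52.9% with quantile normalization. In protein-coding genes alone it was 43.1%, and 57.3% after centring by gene structure. The median change was -0.15 with TMM factors, 0.07 with quantile normalization and -0.62 with a common sum.

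**Figure D2:**
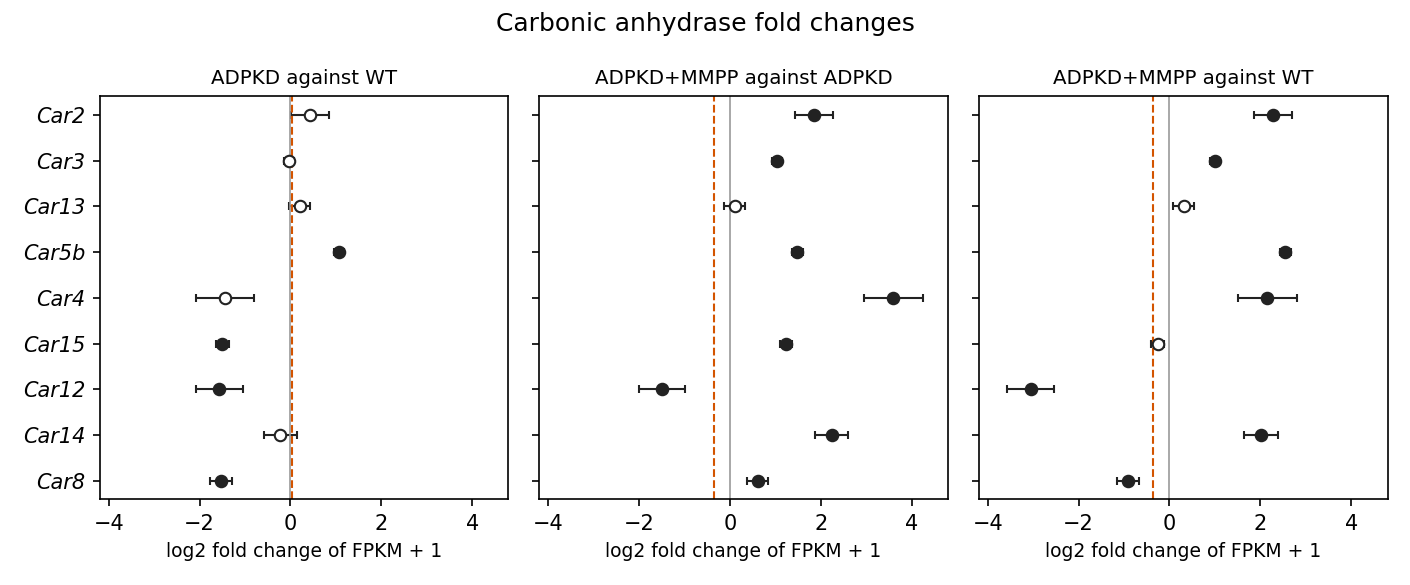
Log2 fold changes of FPKM + 1 for the 9 members in the 3 comparisons, with bars of 1 standard error from limma. Filled points are called genes, open points are not, the grey line marks 0, and the dashed line marks the median of all tested genes at 0.03, -0.36 and -0.36.

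Car2, the fast cytosolic enzyme, had 83.9 and 90.3 FPKM in the WT libraries, 188 and 73.3 in ADPKD, and 419.6 and 429 in ADPKD+MMPP. The treated libraries were close to each other and far above the rest, whereas the ADPKD libraries lay on both sides of WT, with 2.57 times as much in replicate 1 as in replicate 2. Between ADPKD and WT the difference was 0.43 on the log2 scale (standard error, SE, 0.42, adjusted p = 0.483, limma with Benjamini-Hochberg adjustment over all genes tested). Car2 was called at 1.10 when ADPKD replicate 2 was left out, and was not called at -0.25 when replicate 1 was. In ADPKD+MMPP the log2 fold change was 1.84 against ADPKD (SE 0.42, adjusted p = 0.0081) and 2.27 against WT (adjusted p = 0.00325). These lie 2.20 and 2.63 above the medians of all genes. Leaving out ADPKD replicate 1 gave 2.52 against ADPKD, and leaving out replicate 2 gave 1.17, both called.

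Car13, a further cytosolic enzyme, had 5.02 and 7.25 FPKM in WT, 7.996 and 6.32 in ADPKD, and 9.14 and 6.54 in ADPKD+MMPP. The 3 groups overlapped, and none of the 3 comparisons called it. Its log2 fold changes were 0.20 in ADPKD against WT (SE 0.23), 0.11 from ADPKD to ADPKD+MMPP and 0.31 from WT to ADPKD+MMPP. Its direction depended on the scaling, since the change against ADPKD turned to -0.16 with libraries rescaled to a common sum and to -1.02, called, after the centring by gene structure described below. Against WT these scalings gave -0.03 and -0.95, the latter called, and quantile normalization gave 0.71, called higher. Leaving out WT replicate 1 turned ADPKD against WT to -0.02, and leaving out ADPKD replicate 2 or ADPKD+MMPP replicate 1 turned ADPKD+MMPP against ADPKD to -0.04 and -0.11, none called.

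Car3, a cytosolic enzyme of low activity known from muscle, liver and fat, had 0.046 and 0.068 FPKM in WT, 0 and 0.065 in ADPKD, and 1.123 and 1.09 in ADPKD+MMPP. It rested on 10 reads in the WT libraries together, 6 in ADPKD and 72 in ADPKD+MMPP. The library listed at 0, ADPKD replicate 1, could have shown 3 reads at 0.032 FPKM. Both treated libraries were above all others, but at a level near the filter. The log2 fold change of 1.03 against ADPKD is on the log2(FPKM + 1) scale, which shrinks changes of low genes. Its p is not given, since only the treated libraries carried Car3 past the filter. With limma-voom on the recovered reads, an alternative chosen after seeing the data, it was 5.87. This size is not exact, since ADPKD replicate 1 had 0 reads. Of the 6 skeletal muscle markers, Mylpf alone passed the filter, with 1.42 and 1.98 FPKM in WT, 1.22 and 0.793 in ADPKD, and 0.319 and 0.173 in ADPKD+MMPP. Acta1 went the other way, with 0.256 and 0.505 FPKM in WT, 0.669 and 0.386 in ADPKD, and 0.882 and 0.955 in ADPKD+MMPP, so its treated libraries were above all others, as those of Car3 were. Ckm and Tnnt3 stayed under 0.3 FPKM and Myh4 under 0.01, and Myh1 was at 0 in all 6 libraries. Of the 7 adipocyte markers, Lep was at 0 in all 6 libraries, Plin1, Cidec and Retn were under 0.1 FPKM in each, and Fabp4, which endothelium also expresses, had 27.4 and 31.4 FPKM in WT, 44.7 and 47.2 in ADPKD, and 28.9 and 27.3 in ADPKD+MMPP, where it was called lower against ADPKD. Adipoq had 0 and 0.398 FPKM and Cfd 0 and 0.795 in ADPKD+MMPP, after 0.197 and 1.45 for Cfd in ADPKD. The part of muscle or fat in the level of Car3 was not tested.

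Car5b, the mitochondrial enzyme, which supplies bicarbonate to carboxylases in the matrix, had 3.36 and 2.99 FPKM in WT, 7.69 and 7.78 in ADPKD, and 22.5 and 24.2 in ADPKD+MMPP. It rose from group to group, and the replicates of each group lay close together. On the log2 scale it rose by 1.07 in ADPKD against WT (SE 0.12, adjusted p = 0.00449), by 1.48 after treatment against ADPKD (SE 0.12, adjusted p = 0.000139) and by 2.55 against WT (adjusted p = 2.53e-05). Between 588 and 1690 reads lay behind each value. Its FPKM was 0.67 and 0.41 times that of Car13 in the WT libraries, 0.96 and 1.23 times in ADPKD, and 2.47 and 3.71 times in ADPKD+MMPP. Centring by gene structure ended the call against ADPKD, at a log2 fold change of 0.36, and left 1.28 against WT, called.

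Car4, which a lipid anchor holds on the outer cell surface, had 8.002 and 2.60 FPKM in WT, 2.72 and 0.175 in ADPKD, and 25.5 and 23.2 in ADPKD+MMPP. The ADPKD libraries differed 15.6-fold from each other and overlapped WT, and both treated libraries were above all others. Replicate 2 of ADPKD rested on 11 reads. Its change in ADPKD was -1.44 in log2 units (SE 0.64, adjusted p = 0.152), not called. It was called without ADPKD replicate 1, at -2.28, and without WT replicate 2, at -2.11. It was -0.61 without ADPKD replicate 2 and -0.78 without WT replicate 1, neither called. In ADPKD+MMPP against ADPKD it was 3.60 (SE 0.64, adjusted p = 0.00309), above that of 99.6% of tested genes. Leaving out an ADPKD library gave between 2.77 and 4.43. Against WT it was 2.15 (adjusted p = 0.0225), and 2.82 without WT replicate 1. The call was lost without WT replicate 2, at 1.49, without either ADPKD+MMPP library, at 2.09 and 2.22, and with a pseudocount of 0.1, at 2.39.

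Car15, the other lipid-anchored member, had 2.28 and 2.85 FPKM in WT, 0.27 and 0.246 in ADPKD, and 1.78 and 2.16 in ADPKD+MMPP. Both ADPKD libraries lay far below the rest, and the treated libraries lay just under WT. The reads were 133 and 168 in WT, 17 and 15 in ADPKD, and 40 and 45 in ADPKD+MMPP. In log2 units Car15 changed by -1.50 in ADPKD against WT (SE 0.14, adjusted p = 0.00348) and by 1.24 after treatment (adjusted p = 0.000484). With limma-voom on the recovered reads the same changes were -3.27 and 2.90. ADPKD+MMPP and WT differed by a log2 fold change of -0.26 (adjusted p = 0.132), which is not a call, and turned to 0.37 with quantile normalization and to 0.43 after centring by gene structure. Car15 shares 65.7% of its exon bases with Gm20518, a protein-coding gene on the same strand. Gm20518 had 1.31 and 1.602 FPKM in WT, 0.214 and 0.057 in ADPKD, and 0.956 and 1.01 in ADPKD+MMPP, and how reads in shared bases were assigned is not given in the sources used here.

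Car12, a transmembrane enzyme with its active site outside the cell, had 31.8 and 33.7 FPKM in WT, 19.5 and 5.37 in ADPKD, and 3.05 and 3.06 in ADPKD+MMPP. WT was highest, the ADPKD libraries lay apart from each other, and the treated libraries were lowest. It was the sole member that was lower in both ADPKD against WT and ADPKD+MMPP against ADPKD. Its changes were -1.56 from WT to ADPKD (SE 0.51, adjusted p = 0.0741), -1.49 from ADPKD to ADPKD+MMPP (SE 0.51, adjusted p = 0.0381) and -3.06 from WT to ADPKD+MMPP (adjusted p = 0.00224). The first was not called without WT replicate 1, at -1.60, or without WT replicate 2, at -1.52, and it ranged from -2.40 without ADPKD replicate 1 to -0.72 without ADPKD replicate 2. The call against ADPKD was lost without either WT library, at -1.49, and without either ADPKD+MMPP library, at -1.49. It was also lost with quantile normalization, at -0.98, and after centring by gene structure, at -0.76. Limma-voom on the recovered reads lost it at -1.74. Without a filter on low values, and with only the 2 groups compared, it was lost at -1.49. Leaving out ADPKD replicate 1 gave -0.65 and leaving out replicate 2 gave -2.33, both called.

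Car14, the second transmembrane enzyme, had 2.20 and 1.38 FPKM in WT, 2.47 and 0.613 in ADPKD, and 10.5 and 9.88 in ADPKD+MMPP. WT and ADPKD overlapped, and both treated libraries stood above them. From WT to ADPKD the log2 fold change was -0.22 (SE 0.37, adjusted p = 0.685). It was -0.78 and called without ADPKD replicate 1, and 0.33 without ADPKD replicate 2. In ADPKD+MMPP it was 2.24 against ADPKD (SE 0.37, adjusted p = 0.00224) and 2.01 against WT (adjusted p = 0.00324). Car14 shares 17.5% of its exon bases with Aph1a on the opposite strand, which had 20.9 and 17.1 FPKM in ADPKD and 10.1 and 10.5 in ADPKD+MMPP, so Aph1a was lower where Car14 was higher. Whether counting used the strand is not given in the sources used here.

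The 4 membrane-bound members changed places. Together they had 44.3 and 40.6 FPKM in WT, 24.9 and 6.41 in ADPKD, and 40.8 and 38.3 in ADPKD+MMPP. Car12 made up 71.8% and 83.2% of that in WT, 78.1% and 83.9% in ADPKD, and 7.5% and 8.0% in ADPKD+MMPP. The treated libraries came near the WT sum with Car4 and Car14 in place of Car12. Since treated values shifted with gene structure, as given below, this nearness is of the values as deposited.

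Car8 lacks a histidine that binds the zinc, has no activity on carbon dioxide, and is known to bind an inositol trisphosphate receptor. It had 3.51 and 4.77 FPKM in WT, 0.808 and 0.729 in ADPKD, and 1.19 and 2.33 in ADPKD+MMPP. WT was highest in each case, and the treated libraries, which differed 1.96-fold, lay between WT and ADPKD. Its log2 changes were -1.53 from WT to ADPKD (SE 0.24, adjusted p = 0.00924), -0.92 from WT to ADPKD+MMPP (adjusted p = 0.0129) and 0.61 from ADPKD to ADPKD+MMPP (adjusted p = 0.0562). The last was called on its unadjusted P alone. It was not called without either WT library, at 0.61, without ADPKD replicate 1 or 2, at 0.64 and 0.58, or without ADPKD+MMPP replicate 2, at 0.31. Rescaling to a common sum also ended it, at 0.44. The call against WT was lost without WT replicate 2, at -0.74, and with quantile normalization, at -0.30. Centring by gene structure gave -2.18 against WT, and quantile normalization gave 1.29 against ADPKD, both called.

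The annotation places 3 of the members and Car1 side by side. On GRCm38, Car13 (chr3:14641727-14663002), Car1 (chr3:14766216-14808368), Car3 (chr3:14863512-14872523) and Car2 (chr3:14886273-14900770) lie within 259 kb, and no other protein-coding gene of GENCODE vM21 lies in that stretch. The neighbours Car2 and Car3 were both higher in the treated libraries than in any other and overlapped between ADPKD and WT, though Car3 stood near the filter. Car13 overlapped between the groups, and Car1 was listed at 0 in 5 libraries and at 0.1 FPKM in ADPKD replicate 2. The other members lie apart, Car14 at chr3:95897768-95904691, Car8 at chr4:8143362-8239041, Car12 at chr9:66713686-66766845, Car4 at chr11:84957786-84966044, Car15 at chr16:17835276-17838364 and Car5b at chrX:163976822-164027997.

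Of the 7 further family symbols, Car7 and Car11 passed the filter. Car7, a cytosolic enzyme best known from brain, had 3.25 and 2.74 FPKM in WT, 2.14 and 1.18 in ADPKD, and 0.699 and 0.706 in ADPKD+MMPP. It was lower in each comparison, by 0.61 on the log2 scale from WT to ADPKD (adjusted p = 0.0722) and by 0.62 from ADPKD to ADPKD+MMPP (adjusted p = 0.0302). Car11, which is thought to be inactive, had 1.73 and 1.91 FPKM in WT, 2.35 and 0.713 in ADPKD, and 3.34 and 3.52 in ADPKD+MMPP. Car9, the enzyme induced by low oxygen, stayed under 1 FPKM except for 2.43 in ADPKD+MMPP replicate 1. Car6 and Car10 were listed at 0 in all 6 libraries, and Car5a, the other mitochondrial enzyme, in 4 of them, with 0.136 FPKM in ADPKD replicate 1 and 0.633 in ADPKD+MMPP replicate 1. The 7 genes summed to between 2.66 and 7.10 FPKM in a library.

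Gene structure moved with the treated group, and the members differ in it. Of the exon bases of a gene, the share that lies in exactly 1 annotated transcript was 100% for Car8 and Car13, which have 1 transcript each, 96.2% for Car5b, 79.9% for Car2, 64.6% for Car3, 57.1% for Car14, 51.7% for Car12, 51.6% for Car15, and 31.3% for Car4. Among tested protein-coding genes with 95% to 100% of such bases, where Car5b, Car8 and Car13 fall, the median log2 fold change in ADPKD+MMPP against ADPKD was 1.09. Among those with 30% to 35%, where Car4 falls, it was -1.06. In ADPKD against WT the same medians were 0.04 and -0.002. Against genes of like structure, the change after treatment was 4.66 higher for Car4, 2.47 higher for Car14, 1.72 higher for Car15, 1.11 higher for Car2 and 0.39 higher for Car5b. For Car8, Car13 and Car12 the difference was -0.48, -0.98 and -1.01. When the values of every library were centred inside 20 equal bins of that share, Car2, Car3, Car4, Car14 and Car15 were called higher against ADPKD, Car13 turned to a called log2 fold change of -1.02, Car8 turned to -0.51, not called, and Car12 and Car5b lost their calls. In ADPKD against WT the same 4 members were called with this centring. The centred change against ADPKD was 1.18 for Car2, 4.99 for Car4 and 1.97 for Car15, and that against WT was 1.62 for Car2, 3.53 for Car4 and -2.37 for Car12, all called. A smaller pseudocount widened the changes of low members, since less is added to each value. With 0.1 they were, in ADPKD against WT, -2.41 for Car4, not called, -2.27 for Car8 and -2.89 for Car15, and, in ADPKD+MMPP against ADPKD, 3.23 for Car3, 4.79 for Car4, 2.92 for Car14 and 2.53 for Car15. Limma-voom on the recovered reads gave -2.68 for Car4, not called, and -2.41 for Car8 in ADPKD against WT, and 5.10 for Car4 and 3.03 for Car14 in ADPKD+MMPP against ADPKD.

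Partners of the enzymes in acid-base transport were read from 2 lists. Of the 17 bicarbonate transporters, 12 were tested, and in ADPKD against WT 2 were called higher and 4 lower, where 14.2% of all tested genes were higher and 12.5% lower. Their median log2 fold change was -0.24, and -1.42 with a filter of a mean of at least 5 FPKM. The lower genes were Slc4a1, Slc4a9, Slc26a4 and Slc26a7, all known from intercalated cells. Slc26a4, the pendrin exchanger of base-secreting cells, had 83.6 and 109 FPKM in WT, 12.4 and 2.15 in ADPKD, and 45.3 and 45.0 in ADPKD+MMPP, and Slc4a1, the basolateral exchanger of acid-secreting cells, had 20.6 and 14.9, 3.02 and 0.013, and 11.3 and 12.7 in the same order. Slc4a9 did not rise again after treatment, with 51.2 and 57.2 FPKM in WT, 12.7 and 6.60 in ADPKD, and 6.90 and 5.64 in ADPKD+MMPP. The higher genes were Slc26a1 and Slc4a4. Slc4a4, the sodium bicarbonate cotransporter of the proximal tubule, had 2.13 and 2.26 FPKM in WT, 16.5 and 8.75 in ADPKD, and 40.5 and 39.6 in ADPKD+MMPP. After treatment 4 of these transporters were called higher and 5 lower against ADPKD, with a median of -0.34 beside -0.36 for all genes, and 2 higher and 4 lower against WT. Over all tested genes 27.9% were higher and 43% lower against ADPKD, and 30.1% and 43.8% against WT. The median against ADPKD turned to 0.13 with quantile normalization, to 0.60 after centring by gene structure and to 0.74 with the same filter.

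Of the 19 genes of proton and ammonia transport, 18 were tested, and in ADPKD against WT 1 was higher and 6 were lower, with a median of -0.32, which turned to 0.06 without ADPKD replicate 2. The lower genes were Atp4a, Atp6v1b1, Atp6v1g3, Atp6v0d2, Atp6v1c2 and Rhbg, subunits of proton pumps and an ammonia channel, and the higher gene was Slc9a4, a sodium-proton exchanger. Atp6v1b1, a subunit of the proton pump of intercalated cells, had 61.5 and 58.0 FPKM in WT, 28.7 and 7.53 in ADPKD, and 78.3 and 76.2 in ADPKD+MMPP. In ADPKD+MMPP against ADPKD 11 were higher and 3 lower, with a median of 1.32, and against WT 8 were higher and 4 lower. Over all tested genes 14.2% were higher and 12.5% lower in ADPKD against WT, 27.9% and 43% in ADPKD+MMPP against ADPKD, and 30.1% and 43.8% against WT. In this list, Rhcg, an ammonia channel of the collecting duct, had 155 and 171 FPKM in WT, 172 and 42.3 in ADPKD, and 419.7 and 439 in ADPKD+MMPP. Slc9a3, the sodium-proton exchanger of the proximal tubule, had 7.67 and 3.62 FPKM in WT, 5.55 and 1.83 in ADPKD, and 21.6 and 22.9 in ADPKD+MMPP. As with Car2, Car4, Car12 and Car14, ADPKD replicate 2 was below replicate 1 in Slc26a4, Slc4a1, Slc4a4, Atp6v1b1, Rhcg and Slc9a3.

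Markers of the cells that carry these enzymes moved with the groups too. Of 13 intercalated cell markers, 7 of which are also in the transport lists, 11 were called lower in ADPKD against WT and none higher. Their summed FPKM was 543 and 533 in WT, 178 and 111 in ADPKD, and 276 and 282 in ADPKD+MMPP. The marker with the largest mean over the 6 libraries, Adgrf5, which endothelium also expresses, had 154 and 132 FPKM in WT, 51.8 and 48.1 in ADPKD, and 9.78 and 8.22 in ADPKD+MMPP, where Atp6v1b1 was the most abundant. Unlike Adgrf5, 8 of the 13 were called higher in ADPKD+MMPP against ADPKD and 3 lower, with a median of 1.83. Foxi1, the factor that specifies these cells, had 9.23 and 7.55 FPKM in WT, 2.14 and 1.35 in ADPKD, and 23.1 and 22.9 in ADPKD+MMPP. In ADPKD+MMPP against WT, Foxi1 alone of the 13 was called higher and 6 were called lower, with a median of -0.93. Over all tested genes 30.1% were higher and 43.8% lower in that comparison. The 10 principal cell markers, led by Aqp2, summed to 2122 and 2809 FPKM in WT, 2518 and 951 in ADPKD, and 5432 and 5457 in ADPKD+MMPP. All but Avpr2 were tested, and in ADPKD against WT Aqp4 was called higher and none lower, with a median of -0.63. After treatment Aqp2, Aqp3, Hsd11b2 and Scnn1g were called higher against ADPKD, and Aqp4, Elf5 and Scnn1b lower, with a median of -0.01. Among proximal tubule markers, 4 of 14 were higher and 1 lower in ADPKD against WT, and 11 were higher and none lower in ADPKD+MMPP against ADPKD. Over all tested genes these shares were 14.2% and 12.5%, then 27.9% and 43%. The largest mean among these markers was that of Kap, which had 234 and 101 FPKM in WT, 509 and 64.0 in ADPKD, and 12822 and 12116 in ADPKD+MMPP. In both WT libraries and ADPKD replicate 2 Aqp1 was above it, at 343, 234 and 181 FPKM. The 7 markers of the thick limb and distal tubule, led by Umod, summed to 1272 and 493 FPKM in WT, 619 and 209.5 in ADPKD, and 219 and 214 in ADPKD+MMPP. Umod made up most of that sum in each WT and ADPKD library and had 80.3 and 79.3 FPKM after treatment. In ADPKD+MMPP against ADPKD 3 of the 7 were called higher, Slc12a3, Cldn10 and Pvalb, and 2 lower, Umod and Trpm6, with a median of 0.20.

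Markers of cells outside the tubule also differed between the groups. All 5 podocyte markers, led by Podxl, and 7 of 8 endothelial markers were called lower in ADPKD against WT, where 12.5% of all tested genes were lower and 14.2% higher. The endothelial markers summed to 985 and 828 FPKM in WT, 572 and 583 in ADPKD, and 326 and 354 in ADPKD+MMPP, and Plvap, called higher in ADPKD, had the largest mean over the 6 libraries but was below Cdh5 and Emcn in both WT libraries. All 7 macrophage markers were higher in ADPKD against WT, and their sum went from 68.3 and 67.9 FPKM in WT to 523.5 and 633 in ADPKD and 1160 and 1212 in ADPKD+MMPP. Lyz2 was at the top in ADPKD and ADPKD+MMPP, and Cd68 in WT. In ADPKD+MMPP against ADPKD, Lyz2, C1qa, C1qb and C1qc were called higher and Adgre1, Cd68 and Csf1r lower, with Csf1r at 17.0 and 25.6 FPKM in ADPKD and 0.381 and 0.191 in ADPKD+MMPP, below its 5.002 and 8.04 in WT. The 5 fibroblast markers summed to between 73.9 and 145 FPKM in a library, but went in opposite directions. Col1a1 had 0.364 and 0.389 FPKM in WT, 32.3 and 33.4 in ADPKD, and 61.6 and 70.1 in ADPKD+MMPP, and Col3a1 was much the same, whereas Pdgfrb had 91.3 and 65.6, 38.9 and 31.4, and 1.05 and 0.837 in the same order. In ADPKD 3 of them were called higher and 1 lower against WT, and after treatment 2 higher and 3 lower against ADPKD, where 27.9% and 43% of all tested genes were. The 6 erythroid markers summed to between 2.18 and 6.98 FPKM, led by Hba-a1 in WT and ADPKD and by Hbb-bs in ADPKD+MMPP. The part of any of these cell types in the levels of the carbonic anhydrases was not tested.

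Genes whose values followed those of a member most closely were sought among all tested genes, by the root mean square difference of log2(FPKM + 1) over the 6 libraries after each gene was centred on its own mean. The 3 nearest to Car2 were Samd9l, Cdc20 and Aldh1a7, with differences of 0.10, 0.14 and 0.14, and Samd9l had 13.5 and 15.2 FPKM in WT, 32.2 and 13.2 in ADPKD, and 74.4 and 64.4 in ADPKD+MMPP. Nearest to Car5b were Twsg1, Tmem98 and Marchf9, at 0.07 to 0.09. Nearest to Car4 were Acaa1b, Aspdh and Bsnd, at 0.11, 0.28 and 0.29, and Acaa1b, a peroxisomal thiolase of fat breakdown, had 30.4 and 9.52 FPKM in WT, 9.89 and 3.13 in ADPKD, and 85.3 and 80.8 in ADPKD+MMPP. Nearest to Car14 were Prps2, Khk and Mcee, at 0.09 to 0.10, of which Khk is the enzyme that phosphorylates fructose. Nearest to Car15 were Lims2, Gja4 and Gsta4, at 0.11 to 0.14, and nearest to Car8 were Asb15, Ip6k3 and Hexim1, at 0.12 to 0.19. Nearest to Car12 were Galnt18, Fgf1 and F8, at 0.19 to 0.21, and Galnt18 had 45.1 and 44.5 FPKM in WT, 22.5 and 8.88 in ADPKD, and 5.85 and 5.55 in ADPKD+MMPP. Nearest to Car13 were Lancl2, Gpn2 and Osbpl8, at 0.09 to 0.11, and nearest to Car3, whose changes the log scale shrinks, were Dusp11, Map2k4 and Cd24a, at 0.03 to 0.04.

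Promoter windows of RefSeq on GRCm38.p6, from 250 bases before to 50 after the start of a gene, were given for Car4, Car5b, Car12, Car14 and Car15. They were searched on both strands for TGACGTCA, the element CRE that the factor CREB binds, since the study concerns CREB, and for its shorter form TGACG. No window of the 5 held TGACGTCA, which is present in 1.8% of 32851 promoters. TGACG, which lies within the longer element, is present in 20.8% of them and in 1 of the 5, that of Car15. The match is shown with its surroundings because Car15 is the member that was lower in both ADPKD libraries and near WT after treatment. The match starts 238 bases before the RefSeq start on the strand of the gene. The span of Car15 in GENCODE begins at 17838364 on its strand, nearer to the match than the RefSeq start. The stretch of 30 bases around the match, chr16:17838407-17838436, lies within the span of Gm20518, and the capitals mark the letters searched.
Car15: aactaatttcttTGACGgtggtttcggcat
A match is a description of the sequence and not a binding site.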

How the data were processed

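Reads were aligned by the authors with HISAT2 2.1.0 (GRCm38), assigned to genes with featureCounts 1.6.0 and deposited as FPKM. The authors used DESeq2. DESeq2 was not used, since FPKM are not counts. The annotation release and the step from counts to FPKM are not given in the sources used here. Genes with at least 1 FPKM in at least 2 libraries (14862) went, as log2(FPKM + 1), into a single limma 3.58.1 fit (R 4.3.3) of the 3 groups, with p adjusted by Benjamini-Hochberg over all of them. Exon lengths and transcripts came from GENCODE vM21, which 53253 symbols matched. FPKM times exon length times depth gave reads, whole within 0.05 for 98.3% to 99.0% of values up to 20 reads. These limit counting error only. Python 3.11.15 was used for the remaining steps, and the fit was tested on simulated data. Alternatives changed the pseudocount, filter, scaling, trend, groups in the fit, thresholds, replicate block, gene structure and each library in turn. A fit on recovered reads with limma-voom and a fit of protein-coding genes were added after seeing the data. Without a library, the lone sample of its group is assumed to vary like the others. The members, gene lists and tests were chosen with earlier results of these data known. Genes named beside the members are those of the acid-base lists called in ADPKD against WT or known as partners, the marker of each cell type with the largest mean over all libraries, markers at 0, and the 3 genes nearest to each member. Aph1a and Gm20518 are named because they overlap members, and Pkd1 and Aqp2 check the labels. All markers of muscle and fat are named beside Car3, and markers that differ from the sum of their list were chosen after their values were seen. So were Atp6v0a4 and the values shown for Slc4a9, Atp4a and Atp6v1c2. A gene not covered here was taken off the proton and ammonia list after its values were seen. Protein sequences were not analysed here.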

Additional observations from a re-analysis of the deposited data

How the results depend on the processing

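Members called numbered 4 in ADPKD against WT (3 to 6 when a library was left out), 8 in ADPKD+MMPP against ADPKD (6 to 7) and 7 in ADPKD+MMPP against WT (5 to 7). With a filter of a mean of at least 5 FPKM, 5 members were tested and 2, 4 and 4 were called, since fewer genes passed. The same filter left 4 bicarbonate transporters called in ADPKD+MMPP against ADPKD and 3 against WT, and 2102, 5848 and 6017 genes over the whole table. At a fold change of at least 2, 1951 genes were called in ADPKD against WT. Centring by the share of exon bases in 1 transcript gave 10 bicarbonate transporters called in ADPKD+MMPP against WT. It turned Car8 to -0.514 and Car13 to -1.017 in ADPKD+MMPP against ADPKD, and Car13 to -0.955 in ADPKD+MMPP against WT, and the cause was not tested. Libraries share only a replicate number: differences between replicates correlated at 0.129 for WT and ADPKD, -0.008 for WT and ADPKD+MMPP and 0.014 for ADPKD and ADPKD+MMPP. A replicate block gave 5, 8 and 7 members called, adding Car4, at -1.44, as lower in ADPKD against WT and changing no other member's call, 6, 9 and 6 bicarbonate transporters, 7, 14 and 12 genes of proton and ammonia transport, and 4055, 10595 and 11038 genes over the whole table. Nothing says that the 2 libraries of a group came from separate animals, so no measure of the spread between animals can be claimed. Depth and the making of the values differ with treatment and cannot be told apart from it.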
